A study of Danio rerio with 12 samples.

Results

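MicroRNAs of zebrafish embryos exposed to TCDD were compared between 60 and 36 hours post fertilisation (hpf). The comparison took the 3 libraries labelled 60 hpf TCDD and the 3 labelled 36 hpf TCDD, which are 6 of the 12 libraries of the series, and all miRNA rows of the deposited count tables. The other 6 libraries, 3 of 60 hpf and 3 of 36 hpf embryos given DMSO, entered the same model and are set beside the exposed embryos below. All embryos were of the TL wild type strain, and each library was made from RNA of embryos with no tissue separated. TCDD, a dioxin, is a strong agonist of the aryl hydrocarbon receptor, and DMSO is a solvent used as its vehicle. The labels used here give neither the dose nor the hours of exposure, and they do not say how many embryos a library holds or whether replicates came from separate clutches. P-values therefore measure the spread between these libraries, which may be technical. In whole embryos, fewer cells of a type and less RNA per cell cannot be told apart.

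A miRNA is cut from a hairpin precursor and guides silencing of mRNAs that pair with its seed, a short stretch near its start, so that miRNAs of 1 family with 1 seed can share targets. Either arm of the hairpin can yield a miRNA. Here the arm without a star in the deposited name is called the major arm and the other the star arm, although a star arm is not always the scarcer one. Between 36 hpf, in the pharyngula period, and 60 hpf, in the hatching period, the zebrafish embryo differentiates muscle, nervous system, sense organs, liver and gut. Families known for such steps include let-7, which marks the passage from proliferation to differentiation in worms and vertebrates, miR-430, which clears maternal mRNA in the early zebrafish embryo, and the proliferation-linked miR-17-92 clusters.

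The 699 miRNA rows were reduced to 464 features by counting hairpin copies with nearly the same counts once, and 410 features, 194 major and 216 star arms, were abundant enough to be tested. The 60 hpf TCDD libraries held 2007639 to 4210840 miRNA counts and the 36 hpf TCDD libraries 459634 to 1236528, so the younger embryos were measured less deeply. Levels are given as CPM, the count of a miRNA scaled to a common library size with TMM factors, and 1 count was worth at most 2.18 CPM before that scaling. Of 25 marker miRNAs of tissues that a whole embryo should hold, 24 had a count in all 6 TCDD libraries, among them miR-1 and miR-206 of muscle, miR-124 of neurons, miR-122 of liver, miR-223 of leukocytes and miR-203b of epidermis. The exception was the erythroid miR-144, which had no count in 1 library of 36 hpf. Having a count is a low bar, since 446 to 454 of the 464 features had one in each 60 hpf TCDD library and 414 to 442 in each 36 hpf TCDD library. The markers therefore say little on how well each tissue is represented. The first principal component of log2 CPM over the 6 libraries, with 37.5% of the variance, separated the times, and the second, with 24.7%, set the 2 libraries numbered 3 apart from the other 4. Calls that ended without these 2 libraries are named with their groups below.

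About 1 in 5 of the tested miRNAs changed between the times in exposed embryos. Between 60 and 36 hpf, 52 of 410 miRNAs were called higher (12.7%) and 36 lower (8.78%) by edgeR's quasi-likelihood test at an adjusted p under 0.05, together 88 (21.5%), and 142 passed an unadjusted p of 0.05 (34.6%). The shares of 12.7% and 8.78% are the background for the counts that this fit gave in every group of miRNAs below. Counts from DESeq2 or from another setting have a background of their own. DESeq2 called more miRNAs lower over all 410 than this fit did, and its number of higher calls over all 410 is not given here. Among major arms alone 12.9% were higher and 8.76% lower, and among star arms 12.5% and 8.8%. The times did not overlap in 94 miRNAs that lay above (22.9%) and 72 that lay below (17.6%). The lists differ in size, and those with most higher calls were the neural one (13 of 36 tested arms) and let-7 (12 of 20). The miR-125 group (5 of 15) and the sensory cluster (4 of 6) followed. Of the lists, miR-430 held the largest number of lower calls (8 of 8). The miR-130 and miR-301 group held 4 of 16 and the muscle list 4 of 15. The miR-17-92 type clusters held 4 of 32 and the neural list 4 of 36, shares of 12.5% and 11.1% that lie near the background. Log2 fold changes, always 60 over 36 hpf, had a median of 0.08 over all tested miRNAs, with 215 positive and 195 negative values. TCDD libraries of the same number deviated together at the 2 times, while DMSO libraries did not. A fit with the number as a block (the replicate block) leaves fewer residual degrees of freedom. It called 41 miRNAs higher (10%) and 19 lower (4.63%), 60 in all (14.6%). Of these, 39 higher and 19 lower ones were also calls of the fit without the block. The count of lower miRNAs was also smaller without 36 hpf TCDD replicate 2 (22), without 60 hpf TCDD replicate 1 (23) and without 60 hpf TCDD replicate 2 (21), while 28 of the 52 higher and 16 of the 36 lower calls held whichever of the 6 libraries was left out. With only the 6 TCDD libraries in the fit, so that the DMSO libraries did not help to estimate the spread, 37 of the 52 higher and 15 of the 36 lower calls were kept. The calls lost there are not marked below, so a call without a mark can still be one that ended in this fit. Of the 35 called miRNAs that the naming rule at the end picked, 10 ended there. Where a call ended with 1 TCDD library left out, that library and the edgeR adjusted p without it are given in parentheses. Without both libraries numbered 3, 45 were higher and 30 lower, and 26 of the 88 calls ended. These are named below with the edgeR adjusted p without the 2 libraries in parentheses. With total count scaling in place of TMM the median over the 410 moved up by 0.46 and the split was 90 higher and 20 lower. Lists gained higher calls with it, among them the neural list (17), the miR-125 group (8), the eye list (4) and the cartilage list (4). Changes, and the counts of positive and negative values in the lists below, are therefore relative to the bulk of miRNAs.

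**Figure D1:**
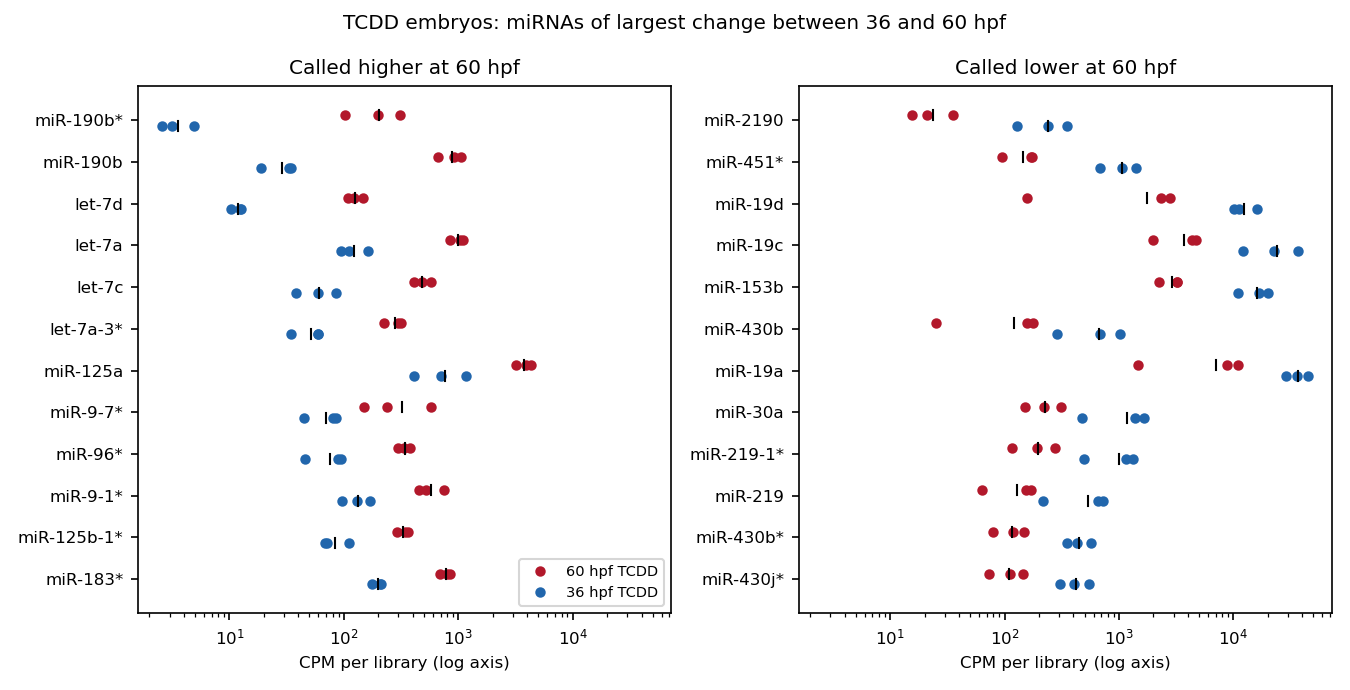
Level in CPM (log axis) of the 12 miRNAs that changed most in each direction, taken from calls that reached 100 CPM on average at either time and did not overlap. Points are the 3 libraries of 60 hpf TCDD (red, upper row of each pair) and of 36 hpf TCDD embryos (blue, lower row), and ticks are group means. The miR-190b arms stand farthest apart among the higher miRNAs, and in miR-19a, miR-19d and miR-430b 1 library of 60 hpf lies far below the other 2.

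The let-7 family rose. Of 25 let-7 features 20 were tested, and 12 of these (60%) were called higher and 0 lower, with a median log2 fold change of 1.48 and positive values in all 20. The abundant let-7a had 1037, 1099 and 851 CPM in 60 hpf TCDD embryos, against 163, 94.7 and 111 CPM in 36 hpf TCDD embryos (edgeR log2 fold change 3.01, SE 0.39, adjusted p = 0.000881). Every library of 60 hpf was above every library of 36 hpf. For let-7d the libraries lay at 122, 146 and 109 CPM in 60 hpf TCDD embryos, against 10.4, 12.6 and 12.4 CPM in 36 hpf TCDD embryos (edgeR log2 fold change 3.42, SE 0.38, adjusted p = 0.000881). The values of let-7c were 481, 572 and 408 CPM in 60 hpf TCDD embryos, against 85.4, 37.9 and 59.3 CPM in 36 hpf TCDD embryos (edgeR log2 fold change 2.99, SE 0.72, adjusted p = 0.0147). The scarcer let-7b stood at 84.1, 60.4 and 72.2 CPM in 60 hpf TCDD embryos, against 1.73, 6.32 and 17.3 CPM in 36 hpf TCDD embryos (edgeR log2 fold change 3.29, SE 0.80, adjusted p = 0.0149). In these 3 members too the groups did not overlap. Smaller changes were called for let-7g, at 758 ± 98 CPM in 60 hpf TCDD embryos and 229.6 ± 33.2 CPM in 36 hpf TCDD embryos (SD, n = 3 each; edgeR log2 fold change 1.72, SE 0.32, adjusted p = 0.00413). They were also called for let-7f (edgeR log2 fold change 1.63, SE 0.39, adjusted p = 0.0144) and let-7e (edgeR log2 fold change 1.14, SE 0.28, adjusted p = 0.0158, and 0.0695 with the replicate block). The major arms let-7h and let-7j were not called, with log2 fold changes of 1.57 (SE 1.11) and 1.07 (SE 0.72). In 60 hpf TCDD replicate 1 let-7h lay at 0.772 CPM, against 66.1 and 39.3 CPM in the other libraries of 60 hpf. Mature let-7 sequences differ little from one another, and reads shared between members cannot be separated here.

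Star arms of let-7 were also called higher, namely let-7a-3* at 2.46 (SE 0.35), let-7a-1* at 1.01 (SE 0.31), let-7b* at 5.07 (SE 0.71), let-7c* at 1.33 (SE 0.29) and let-7d* at 1.59 (SE 0.35). The star arm of let-7b had 31.9, 43 and 23.9 CPM in 60 hpf TCDD embryos, against 0.863, 0 and 2.47 CPM in 36 hpf TCDD embryos (edgeR log2 fold change 5.07, SE 0.71, adjusted p = 0.00124), and so was close to the detection limit at 36 hpf. Summed over all tested let-7 arms, the level was 3374, 4024 and 3357 CPM in 60 hpf TCDD embryos, against 900.5, 777 and 850.5 CPM in 36 hpf TCDD embryos, a 4.25-fold difference of the means, and the groups did not overlap. With the replicate block 10 of the 20 arms were called, and the calls of let-7e and let-7a-1* ended (adjusted p = 0.0695 and 0.125). Leaving out 1 library ended the call of let-7a-1* (36 hpf replicate 1, 2 or 3 or 60 hpf replicate 2 or 3, adjusted p = 0.0788 to 0.116), let-7b (36 hpf replicate 2, adjusted p = 0.0567) and let-7c (36 hpf replicate 2, adjusted p = 0.0509). Calls that ended with 1 library left out were those of let-7e (36 hpf replicate 1 or 3 or 60 hpf replicate 2, adjusted p = 0.0583 to 0.067) and let-7f (36 hpf replicate 2, adjusted p = 0.0536). In the fit without 36 hpf TCDD replicate 2, 8 let-7 arms were called higher. Without both libraries numbered 3 there were 9, and the calls of let-7a-1* (0.182), let-7c (0.0639) and let-7e (0.0843) ended.

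The miR-125 group, whose members are encoded in clusters with let-7 and miR-99 or miR-100 in vertebrates, changed in the same direction in part. Of 15 tested arms of miR-125, miR-99 and miR-100, 5 were called higher (33.3%), all of them of miR-125, and 0 lower, with a median of 0.88. Among the abundant called members, miR-125b had 11214, 9922 and 8646 CPM in 60 hpf TCDD embryos, against 3681, 3857 and 4265 CPM in 36 hpf TCDD embryos (edgeR log2 fold change 1.34, SE 0.24, adjusted p = 0.00389). Its groups were separate, and miR-125c followed at 10605, 11085 and 9894 CPM in 60 hpf TCDD embryos, against 5199, 6245 and 6403 CPM in 36 hpf TCDD embryos (edgeR log2 fold change 0.82, SE 0.24, adjusted p = 0.0324, and 0.0768 with the replicate block). The larger change was that of miR-125a, with 4310.2, 3169.9 and 3879.7 CPM in 60 hpf TCDD embryos, against 411, 704 and 1167 CPM in 36 hpf TCDD embryos (edgeR log2 fold change 2.32, SE 0.38, adjusted p = 0.00289). The star arms miR-125a-2* at 3.52 (SE 0.66) and miR-125b-1* at 1.99 (SE 0.30) completed the calls. The abundant miR-99 had 18985, 10919 and 21361 CPM in 60 hpf TCDD embryos, against 8564, 9382 and 9818 CPM in 36 hpf TCDD embryos and was not called (edgeR log2 fold change 0.88, SE 0.42, adjusted p = 0.153), although its groups did not overlap either. Single libraries decided the call of miR-125c (any of the 6, adjusted p = 0.0508 to 0.131). Without both libraries numbered 3 miR-125c was not called either (edgeR adjusted p = 0.0549).

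Among called miRNAs that reached 100 CPM, the steepest increase was that of miR-190b, a miRNA of a small family whose other member in the tables is miR-190. Its major arm had 672, 916 and 1047 CPM in 60 hpf TCDD embryos, against 19, 33.2 and 34.6 CPM in 36 hpf TCDD embryos (edgeR log2 fold change 4.94, SE 0.63, adjusted p = 0.000881). The star arm moved with it, with 103, 199.8 and 309.9 CPM in 60 hpf TCDD embryos, against 2.59, 3.16 and 4.94 CPM in 36 hpf TCDD embryos (edgeR log2 fold change 5.91, SE 0.75, adjusted p = 0.000881). The lowest library of 60 hpf lay 19.4-fold above the highest of 36 hpf for the major arm and 20.9-fold for the star arm. The star arm had only 3, 2 and 2 counts in the 36 hpf TCDD libraries, close to the detection limit, so the size of its change is uncertain. Neither arm of miR-190 was called, with log2 fold changes of 0.42 (SE 0.90) for the major and 0.23 (SE 0.51) for the star arm.

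Neural miRNAs changed in both directions. Of 36 tested arms 13 were called higher (36.1%) and 4 lower (11.1%), with a median of 1.03. Higher were both arms of the miR-132 and miR-212 pair, which is induced by activity in mammalian neurons, star arms of miR-9 (neural progenitors), miR-124 (neurons) and miR-129, and members of the miR-218 (motor neurons) and miR-128 families. miR-132 had 60.4, 67.3 and 67.8 CPM in 60 hpf TCDD embryos, against 17.3, 15.8 and 9.89 CPM in 36 hpf TCDD embryos (edgeR log2 fold change 2.15, SE 0.57, adjusted p = 0.0202). The neighbouring miR-212 had 24.4, 24.7 and 29.4 CPM in 60 hpf TCDD embryos, against 3.45, 6.32 and 0 CPM in 36 hpf TCDD embryos (edgeR log2 fold change 2.87, SE 0.55, adjusted p = 0.00491). Both were scarce at 36 hpf, and their groups were separate. The more abundant miR-218b had 3095, 2691 and 3972 CPM in 60 hpf TCDD embryos, against 674, 595 and 1305 CPM in 36 hpf TCDD embryos (edgeR log2 fold change 1.92, SE 0.37, adjusted p = 0.00482). miR-128 had 3836, 4719.6 and 4438 CPM in 60 hpf TCDD embryos, against 1955, 1933 and 1595 CPM in 36 hpf TCDD embryos (edgeR log2 fold change 1.24, SE 0.31, adjusted p = 0.016, and 0.0594 with the replicate block). For miR-9 the called arms were stars, 1 of them miR-9-1* with 752, 451 and 520.4 CPM in 60 hpf TCDD embryos, against 131, 169 and 96.4 CPM in 36 hpf TCDD embryos (edgeR log2 fold change 2.12, SE 0.32, adjusted p = 0.00176). The other was miR-9-7* at 2.20 (SE 0.56). The libraries of 60 hpf spread widely in miR-9-7*, where replicate 1 was highest at 581 CPM.

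Among the other neural arms called higher, miR-129-2* had 1757, 2059.9 and 2567 CPM in 60 hpf TCDD embryos, against 568, 827 and 722 CPM in 36 hpf TCDD embryos (edgeR log2 fold change 1.59, SE 0.30, adjusted p = 0.00413). The log2 fold changes were 1.91 (SE 0.49) for miR-124-4*, 1.04 (SE 0.33) for miR-124-2*, 0.90 (SE 0.26) for miR-218a-1*, 3.54 (adjusted p = 0.0278) for miR-212*, 2.22 (SE 0.55) for miR-132-1* and 2.34 (SE 0.54) for miR-132-2*. miR-212* was scarce in 36 hpf TCDD embryos, with a mean of 2.15 CPM. The major arm of miR-124 had 1783, 20.7 and 2120.2 CPM in 60 hpf TCDD embryos, against 250.1, 644 and 267 CPM in 36 hpf TCDD embryos and was not called (log2 fold change 1.76, SE 1.07). Its groups overlapped. The replicate block ended the calls of miR-132-1* (0.0648), miR-128 (0.0594), miR-124-2* (0.0717) and miR-218a-1* (0.109), with the adjusted p in parentheses. The threshold was missed with 1 library left out by miR-128 (36 hpf replicate 1, 2 or 3 or 60 hpf replicate 2, adjusted p = 0.0509 to 0.0622), miR-132 (36 hpf replicate 1, 2 or 3 or 60 hpf replicate 2, adjusted p = 0.0504 to 0.0657) and miR-212* (36 hpf replicate 1 or 3 or 60 hpf replicate 1, adjusted p = 0.0711 to 0.104). Dropping a single library ended the call of miR-9-7* (36 hpf replicate 3 or 60 hpf replicate 1, adjusted p = 0.0594 to 0.0756), miR-124-2* (36 hpf replicate 1 or 3 or 60 hpf replicate 1, 2 or 3, adjusted p = 0.0873 to 0.185) and miR-124-4* (36 hpf replicate 2 or 60 hpf replicate 2, adjusted p = 0.0509 to 0.0511). Leaving out 1 library ended the call of miR-218a-1* (36 hpf replicate 1, 2 or 3 or 60 hpf replicate 2 or 3, adjusted p = 0.0642 to 0.118). The number of neural arms called higher was 8 without 36 hpf TCDD replicate 1 and also without 36 hpf TCDD replicate 3. It was 9 without both libraries numbered 3, where the calls of miR-124-2* (0.173), miR-124-4* (0.0722), miR-128 (0.0748), miR-132 (0.1) and miR-218a-1* (0.1) ended.

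The neural arms that fell were those of miR-153 and miR-219. miR-153b, which targets the synaptic protein SNAP-25 in zebrafish, had 2242, 3234 and 3219 CPM in 60 hpf TCDD embryos, against 10952, 20079 and 16757 CPM in 36 hpf TCDD embryos (edgeR log2 fold change -2.46, SE 0.38, adjusted p = 0.00206). The lowest library of 36 hpf lay 3.39 times above the highest of 60 hpf. miR-153c had 1110.4, 1905 and 698 CPM in 60 hpf TCDD embryos, against 2773, 4250.5 and 2539 CPM in 36 hpf TCDD embryos (edgeR log2 fold change -1.36, SE 0.42, adjusted p = 0.0383). The third member, miR-153a, had a log2 fold change of -0.22 (SE 0.35) and was not called. For miR-219, known for a part in oligodendrocyte differentiation, the major arm had 63.3, 155 and 169 CPM in 60 hpf TCDD embryos, against 656, 729 and 218 CPM in 36 hpf TCDD embryos (edgeR log2 fold change -2.05, SE 0.62, adjusted p = 0.0371, and 0.0729 with the replicate block). miR-219-1* had 277, 117 and 194 CPM in 60 hpf TCDD embryos, against 1333, 1154 and 499 CPM in 36 hpf TCDD embryos (edgeR log2 fold change -2.35, SE 0.54, adjusted p = 0.0128). At 36 hpf replicate 3 was the lowest library in both arms of miR-219. The summed level of all tested neural arms, of which miR-153b is a large part, overlapped between the times, with 42994, 36902 and 41013 CPM in 60 hpf TCDD embryos, against 34954, 41936 and 44801 CPM in 36 hpf TCDD embryos. Calls that ended with 1 library left out were those of miR-153c (36 hpf replicate 1 or 2 or 60 hpf replicate 1 or 3, adjusted p = 0.0503 to 0.138) and miR-219 (36 hpf replicate 1 or 2 or 60 hpf replicate 1, 2 or 3, adjusted p = 0.0613 to 0.12). The number of neural arms called lower was 2 in each of the fits without 36 hpf TCDD replicates 1 or 2 or without 60 hpf TCDD replicates 1 or 3. The call of miR-153c (0.0926) also ended without both libraries numbered 3.

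The sensory cluster of miR-183, miR-96 and miR-182, which is transcribed as 1 unit in hair cells and photoreceptors, rose. Of its 6 arms 4 were called higher (66.7%) and 0 lower, with a median of 1.68. The major arm miR-183 had 6587, 6996 and 4863 CPM in 60 hpf TCDD embryos, against 2776, 2567 and 1071 CPM in 36 hpf TCDD embryos (edgeR log2 fold change 1.52, SE 0.36, adjusted p = 0.0134). All 3 star arms were called. miR-183* had 697, 839 and 792 CPM in 60 hpf TCDD embryos, against 213, 208 and 178 CPM in 36 hpf TCDD embryos (edgeR log2 fold change 1.96, SE 0.26, adjusted p = 0.000881). miR-96* stood at 339 ± 43.2 CPM in 60 hpf TCDD embryos and 76.5 ± 26.7 CPM in 36 hpf TCDD embryos (SD, n = 3 each; edgeR log2 fold change 2.15, SE 0.49, adjusted p = 0.0112) and miR-182* had a log2 fold change of 1.84 (SE 0.44). The major arms of miR-96 and miR-182 were not called, at 0.31 (SE 0.36) and 0.42 (SE 0.36). These 4 calls held whichever single library was left out, while that of miR-182* (0.0549) ended without both libraries numbered 3. In the eye list, miR-181 and miR-204 of retina and pigment epithelium, 1 of 10 arms was called higher (10%), miR-181b-2* (edgeR log2 fold change 1.31, SE 0.27, adjusted p = 0.00694), and the median was 0.68. miR-204, the third most abundant miRNA at 60 hpf, had 32849.8, 33394 and 39406 CPM in 60 hpf TCDD embryos, against 26491, 25844 and 33336 CPM in 36 hpf TCDD embryos and was not called (log2 fold change 0.30, SE 0.24).

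Liver and gut miRNAs had positive values, with few calls. Of 5 tested arms 2 were called higher (40%), miR-122* and miR-194b*, and the median was 1.71. The star arm of the hepatocyte miRNA miR-122 had 115, 103 and 139 CPM in 60 hpf TCDD embryos, against 35.4, 41.1 and 27.2 CPM in 36 hpf TCDD embryos (edgeR log2 fold change 1.78, SE 0.32, adjusted p = 0.00389). Its major arm varied far more, with 882, 13 and 392 CPM in 60 hpf TCDD embryos, against 104, 23.7 and 14.8 CPM in 36 hpf TCDD embryos, and was not called (edgeR log2 fold change 3.13, SE 1.32, adjusted p = 0.12). 60 hpf TCDD replicate 2 was at or below all 36 hpf libraries in miR-122, but not in miR-122*. miR-192 of intestine and liver had 2216, 2579.9 and 3224 CPM in 60 hpf TCDD embryos, against 1019, 908 and 2054 CPM in 36 hpf TCDD embryos and missed the threshold (edgeR log2 fold change 1.01, SE 0.34, adjusted p = 0.055), and miR-194b* was called at 1.71 (SE 0.47). Single libraries decided the call of miR-194b* (36 hpf replicate 1 or 2 or 60 hpf replicate 1 or 2, adjusted p = 0.0513 to 0.0663). With the replicate block it was not called either (edgeR adjusted p = 0.0575). DESeq2 called 4 of the 5 arms higher, and its share of higher calls over all tested miRNAs is not given here.

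In the cartilage and mesenchyme list (miR-140, miR-199, miR-214 and miR-455) all 11 tested arms had positive values, with a median of 0.77, and 1 was called higher (9.09%). This was miR-455, with 135, 137 and 135 CPM in 60 hpf TCDD embryos, against 68.1, 61.6 and 76.6 CPM in 36 hpf TCDD embryos (edgeR log2 fold change 0.98, SE 0.31, adjusted p = 0.0402, and 0.0768 with the replicate block). The groups were separate and each narrow. The threshold was missed with 1 library left out by miR-455 (any of the 6, adjusted p = 0.0821 to 0.14). The most abundant arm of the list by its mean over both times, miR-140*, had 9732, 8461 and 11052 CPM in 60 hpf TCDD embryos, against 5700.4, 6876 and 12008 CPM in 36 hpf TCDD embryos and was not called (log2 fold change 0.25, SE 0.30). Nor was miR-199-2*, with 7861, 9268 and 6664 CPM in 60 hpf TCDD embryos, against 3566, 2939.9 and 799 CPM in 36 hpf TCDD embryos (edgeR log2 fold change 1.70, SE 0.83, adjusted p = 0.168). 36 hpf TCDD replicate 3 was the highest of its group in miR-140* and the lowest in miR-199-2*. The counts of miR-455* and miR-455b*, both in this list, differed by at most 2.62% in any TCDD library, so they may count the same reads. Without both libraries numbered 3 no arm of the list was called, with miR-455 (0.0926). DESeq2 called 4 of the 11 arms higher, again without its share over all tested miRNAs.

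The miR-430 family fell. Of 13 features 8 were tested, and all 8 were called lower and 0 higher, with a median log2 fold change of -1.93. The 5 others did not pass the filter on low counts, so the 8 are not the whole family. miR-430b had 179, 25.1 and 158 CPM in 60 hpf TCDD embryos, against 688, 289 and 1011 CPM in 36 hpf TCDD embryos (edgeR log2 fold change -2.45, SE 0.66, adjusted p = 0.0235). miR-430a had 65.6, 60.8 and 77.3 CPM in 60 hpf TCDD embryos, against 378, 120.0 and 274 CPM in 36 hpf TCDD embryos (edgeR log2 fold change -1.92, SE 0.40, adjusted p = 0.00706). miR-430c had 19.3, 34 and 42.8 CPM in 60 hpf TCDD embryos, against 349, 25.3 and 141 CPM in 36 hpf TCDD embryos (edgeR log2 fold change -2.43, SE 0.77, adjusted p = 0.0458, and 0.227 with the replicate block). In the first 2 the times were separate, while in miR-430c replicate 2 of 36 hpf lay among the libraries of 60 hpf. Star arms fell by 1.67 (miR-430a-22*), 1.70 (miR-430i*), 1.90 (miR-430c*), 1.94 (miR-430j*) and 1.97 (miR-430b*) on the log2 scale. The counts of miR-430a-22* and miR-430i* differed by at most 2.90% in any TCDD library, and those of miR-430b* and miR-430j* by at most 13.3%, so these pairs may count the same reads. Summed over the tested arms the level was 571, 549.5 and 803 CPM in 60 hpf TCDD embryos, against 3196, 1820.5 and 2818 CPM in 36 hpf TCDD embryos. With the replicate block 6 of the 8 were called, and the calls of miR-430c (0.227) and miR-430c* (0.0531) ended, with the adjusted p in parentheses. Dropping a single library ended the call of miR-430b (36 hpf replicate 3, adjusted p = 0.0685) and miR-430c (36 hpf replicate 1 or 3 or 60 hpf replicate 1, 2 or 3, adjusted p = 0.0641 to 0.196). Without both libraries numbered 3, 6 of the 8 were called as well, and the calls of miR-430b (0.0938) and miR-430c (0.1) ended.

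The miR-17-92 type clusters, which include the genes of miR-19, miR-20 and miR-92, had 29 of 32 arms with negative values. The median was -0.82, and 4 arms (12.5%) were called lower and 0 higher. Of the 4 calls 3 were major arms of miR-19, the member linked to cell survival in mammalian lymphomas. miR-19a had 8733, 10873 and 1480.5 CPM in 60 hpf TCDD embryos, against 35627, 44620.4 and 28837 CPM in 36 hpf TCDD embryos (edgeR log2 fold change -2.37, SE 0.59, adjusted p = 0.016). miR-19c had 4701, 4329 and 1974 CPM in 60 hpf TCDD embryos, against 22571, 37023 and 12193 CPM in 36 hpf TCDD embryos (edgeR log2 fold change -2.71, SE 0.49, adjusted p = 0.00413). miR-19d had 2802, 2312 and 158 CPM in 60 hpf TCDD embryos, against 11138, 16121 and 10059.8 CPM in 36 hpf TCDD embryos (edgeR log2 fold change -2.82, SE 0.76, adjusted p = 0.0235). In each the groups were separate, and 60 hpf TCDD replicate 3 was the lowest of all 6 libraries. The most abundant miRNA of 36 hpf, miR-19b, had 26367, 36634 and 1843 CPM in 60 hpf TCDD embryos, against 92660.1, 115823 and 76518 CPM in 36 hpf TCDD embryos and was not called (edgeR log2 fold change -2.14, SE 0.75, adjusted p = 0.0662). Without both libraries numbered 3 the log2 fold changes were -2.03 for miR-19a, -1.73 for miR-19b, -2.72 for miR-19c and -2.42 for miR-19d, with edgeR adjusted p = 0.00709, 0.00926, 0.00709 and 0.00701, so that miR-19b was called there. The fourth call was miR-18c* (edgeR log2 fold change -1.01, SE 0.24, adjusted p = 0.0134, and 0.0705 with the replicate block). Summed over the list, the level was 103336, 79936 and 52608 CPM in 60 hpf TCDD embryos, against 269162, 272893 and 178683 CPM in 36 hpf TCDD embryos. Leaving out 1 library ended the call of miR-19a (36 hpf replicate 2, adjusted p = 0.0561), miR-19d (36 hpf replicate 2 or 60 hpf replicate 2, adjusted p = 0.053 to 0.0655) and miR-18c* (36 hpf replicate 2 or 60 hpf replicate 2, adjusted p = 0.0509 to 0.0633). Of this list, 1 arm was called lower without 36 hpf TCDD replicate 2 and 2 without 60 hpf TCDD replicate 2. DESeq2 called 8 of the 32 arms lower.

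**Figure D2:**
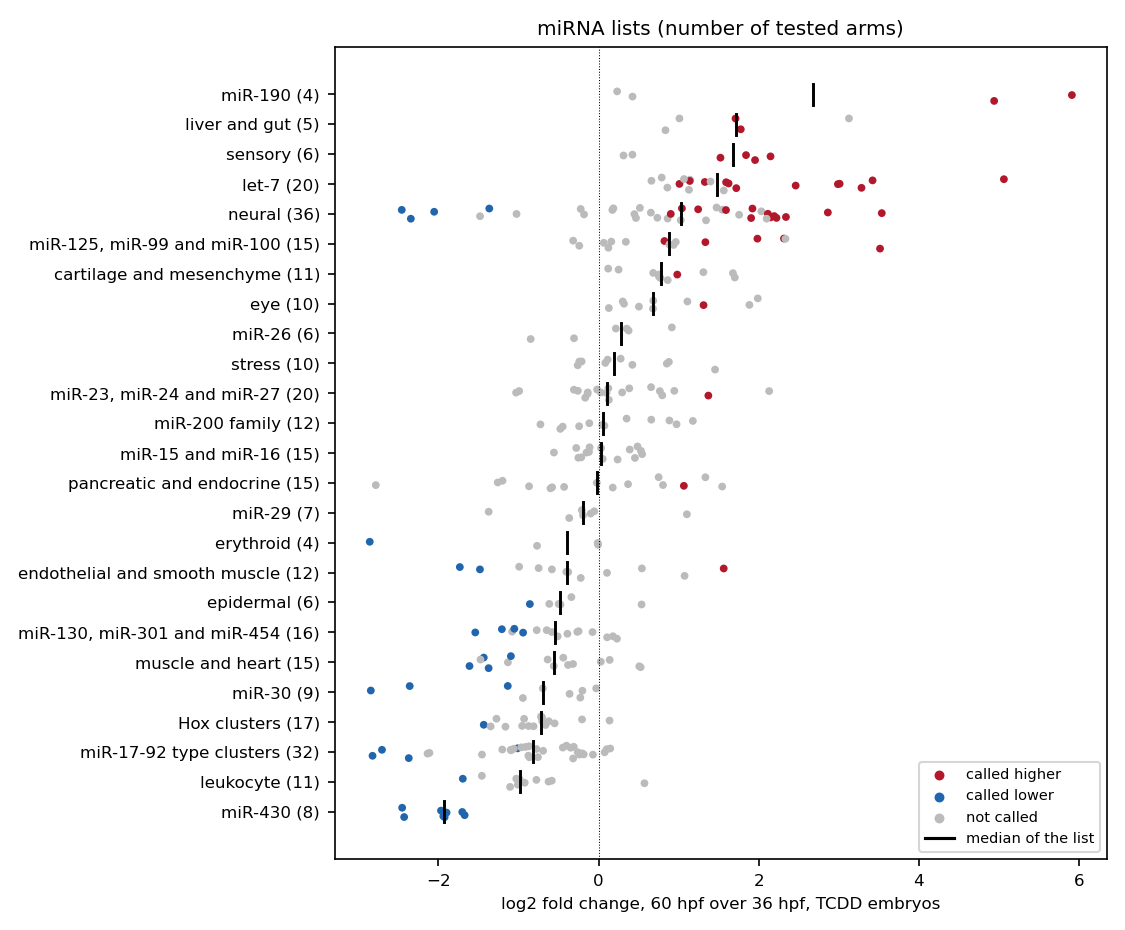
Log2 fold change (60 over 36 hpf, TCDD embryos) of every tested arm in 25 lists of miRNAs, sorted by the list median, which is the black tick. Red points were called higher, blue points lower and grey points not called. The medians run from -1.93 for miR-430 to 2.68 for miR-190, and the neural list holds calls in both directions.

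The group of miR-130, miR-301 and miR-454, which share a seed, had 4 of 16 arms (25%) called lower and 0 higher, with a median of -0.55. miR-301c had 16870.2, 19277 and 19886 CPM in 60 hpf TCDD embryos, against 28006, 43198 and 44976 CPM in 36 hpf TCDD embryos (edgeR log2 fold change -1.05, SE 0.26, adjusted p = 0.016, and 0.0575 with the replicate block). miR-301a had 3656, 4468 and 5045 CPM in 60 hpf TCDD embryos, against 5873, 12230.3 and 20189 CPM in 36 hpf TCDD embryos (edgeR log2 fold change -1.54, SE 0.43, adjusted p = 0.0278, and 0.0575 with the replicate block). miR-301b stood at 656 ± 110.0 CPM in 60 hpf TCDD embryos and 1260.2 ± 189 CPM in 36 hpf TCDD embryos (SD, n = 3 each; edgeR log2 fold change -0.94, SE 0.25, adjusted p = 0.0197, and 0.0729 with the replicate block). The fourth call was miR-454b* (edgeR log2 fold change -1.21, SE 0.37, adjusted p = 0.0375, and 0.0531 with the replicate block). All 4 were separate between the times, but 0 were called with the replicate block. The more abundant miR-130b had 36396, 47200.5 and 51147 CPM in 60 hpf TCDD embryos, against 44172, 66174 and 119753 CPM in 36 hpf TCDD embryos and was not called (log2 fold change -0.77, SE 0.35), with 36 hpf TCDD replicate 3 far above the rest. Calls that ended with 1 library left out were those of miR-301a (36 hpf replicate 2 or 3 or 60 hpf replicate 1, 2 or 3, adjusted p = 0.0506 to 0.0984), miR-301b (36 hpf replicate 2 or 60 hpf replicate 1 or 2, adjusted p = 0.0617 to 0.0949) and miR-301c (36 hpf replicate 2 or 60 hpf replicate 1, adjusted p = 0.0587 to 0.064). Single libraries decided the call of miR-454b* (36 hpf replicate 2 or 3 or 60 hpf replicate 1, 2 or 3, adjusted p = 0.0561 to 0.129). None of the 16 was called without 36 hpf TCDD replicate 2, nor without 60 hpf TCDD replicate 1, nor with total count scaling, where their median was -0.08. There were 2 calls without 36 hpf TCDD replicate 3 and without 60 hpf TCDD replicate 3, and 1 without 60 hpf TCDD replicate 2. There was 1 without both libraries numbered 3, where miR-301a (0.114), miR-301c (0.0582) and miR-454b* (0.172) were not called.

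Of 9 tested arms of miR-30, a family studied in kidney development of frogs, 3 were called lower (33.3%) and 0 higher, with a median of -0.70. miR-30a had 150.5, 222 and 309 CPM in 60 hpf TCDD embryos, against 1646, 472 and 1379.5 CPM in 36 hpf TCDD embryos (edgeR log2 fold change -2.36, SE 0.49, adjusted p = 0.00706). Its star arm had 13.4, 10.5 and 2.29 CPM in 60 hpf TCDD embryos, against 83.7, 41.1 and 61.8 CPM in 36 hpf TCDD embryos (edgeR log2 fold change -2.84, SE 0.69, adjusted p = 0.0147), so both arms of this hairpin fell. The most abundant member, miR-30c, had 5636, 6711 and 8449 CPM in 60 hpf TCDD embryos, against 13034, 20112 and 12492 CPM in 36 hpf TCDD embryos (edgeR log2 fold change -1.13, SE 0.33, adjusted p = 0.0302, and 0.0705 with the replicate block), and miR-30e was not called (log2 fold change -0.36, SE 0.36). The threshold was missed with 1 library left out by miR-30c (36 hpf replicate 2 or 60 hpf replicate 1 or 2, adjusted p = 0.0633 to 0.118).

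Muscle and heart miRNAs were called lower only in star arms among the 15 tested. These 4 calls (26.7%) were miR-133c* (edgeR log2 fold change -1.61, SE 0.36, adjusted p = 0.0104, and 0.0541 with the replicate block), miR-206-2* (edgeR log2 fold change -1.37, SE 0.31, adjusted p = 0.0112), miR-1-2* (edgeR log2 fold change -1.43, SE 0.40, adjusted p = 0.0278, and 0.0717 with the replicate block) and miR-133b* (edgeR log2 fold change -1.09, SE 0.35, adjusted p = 0.0471, and 0.0909 with the replicate block). The list median was -0.56. miR-206-2* had 1064, 1345 and 1402 CPM in 60 hpf TCDD embryos, against 2282, 2905 and 4687 CPM in 36 hpf TCDD embryos. The abundant major arms were not called. miR-206 had 26615, 40570.5 and 34219.9 CPM in 60 hpf TCDD embryos, against 15519, 22588 and 61283 CPM in 36 hpf TCDD embryos (log2 fold change 0.03, SE 0.48). miR-1 had 5958, 9891 and 9429 CPM in 60 hpf TCDD embryos, against 9113, 4151 and 4492 CPM in 36 hpf TCDD embryos (log2 fold change 0.51, SE 0.43). Their groups overlapped, and for miR-206 the sign changed with the scaling (-0.04 with RLE and -0.03 with upper quartile factors). Dropping a single library ended the call of miR-133c* (36 hpf replicate 2 or 60 hpf replicate 2, adjusted p = 0.0536 to 0.0556), miR-133b* (any of the 6, adjusted p = 0.0753 to 0.155) and miR-1-2* (36 hpf replicate 1 or 2 or 60 hpf replicate 1 or 2, adjusted p = 0.055 to 0.0944). In the fit without 36 hpf TCDD replicate 2, and likewise without 60 hpf TCDD replicate 2, 1 arm of the list was called lower, and without 60 hpf TCDD replicate 1 there were 2. With the replicate block the list held 1 lower call, with total count scaling 2 and with DESeq2 7. The call of miR-133b* (0.145) ended without both libraries numbered 3.

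Blood and vessel lists held few calls by edgeR's quasi-likelihood test. In the erythroid list 1 of 4 arms was called lower, miR-451* with 94.7, 172 and 170.0 CPM in 60 hpf TCDD embryos, against 678, 1421 and 1071 CPM in 36 hpf TCDD embryos (edgeR log2 fold change -2.86, SE 0.59, adjusted p = 0.00718). The major arm miR-451, needed for erythrocyte maturation in zebrafish, had 1667, 2645 and 842 CPM in 60 hpf TCDD embryos, against 3579, 4614 and 581 CPM in 36 hpf TCDD embryos and was not called (log2 fold change -0.77, SE 0.68). The 2 libraries numbered 3 were lowest in miR-451 but not in miR-451*. Among 11 leukocyte arms 10 had negative values (median -0.99) and 1 was called lower (9.09%), the haematopoietic miR-142a with 10.8, 13.4 and 12.8 CPM in 60 hpf TCDD embryos, against 44, 31.6 and 44.5 CPM in 36 hpf TCDD embryos (edgeR log2 fold change -1.70, SE 0.31, adjusted p = 0.00413). The call held whichever library was left out, and without 36 hpf TCDD replicate 1 there were 3 calls in this list. At an unadjusted p under 0.05 there were 6 leukocyte arms, and DESeq2 called 5 lower. The far more abundant miR-223 of myeloid cells had 2250.4, 3577 and 4721 CPM in 60 hpf TCDD embryos, against 4125, 4735 and 11135 CPM in 36 hpf TCDD embryos and was not called (log2 fold change -0.92, SE 0.41).

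In the endothelial and smooth muscle list, of 12 arms 1 was called higher and 2 lower. miR-143 of smooth muscle had 242, 240.3 and 197 CPM in 60 hpf TCDD embryos, against 109.5, 75.8 and 42 CPM in 36 hpf TCDD embryos (edgeR log2 fold change 1.56, SE 0.38, adjusted p = 0.0147). Lower was the endothelial star arm miR-221*, with 185, 218 and 203 CPM in 60 hpf TCDD embryos, against 461, 717 and 514 CPM in 36 hpf TCDD embryos (edgeR log2 fold change -1.48, SE 0.43, adjusted p = 0.0312, and 0.0705 with the replicate block). The other was miR-126b*, with 5.92, 9.73 and 8.78 CPM in 60 hpf TCDD embryos, against 12.9, 26.8 and 44.5 CPM in 36 hpf TCDD embryos (edgeR log2 fold change -1.73, SE 0.51, adjusted p = 0.0324, and 0.0717 with the replicate block). The abundant partners miR-145 and miR-221 were not called, with log2 fold changes of 0.54 (SE 0.26) and -0.40 (SE 1.29). Nor were the abundant endothelial arms miR-126a at 0.11, miR-126a* at -0.22 and miR-126b at -0.38. The called miR-126b* made up 0.294% of its hairpin's mean level at 60 hpf and 0.776% at 36 hpf in TCDD embryos. Leaving out 1 library ended the call of miR-143 (36 hpf replicate 2, adjusted p = 0.0508), miR-221* (36 hpf replicate 2 or 60 hpf replicate 1, 2 or 3, adjusted p = 0.0577 to 0.103) and miR-126b* (36 hpf replicate 2 or 3 or 60 hpf replicate 1, 2 or 3, adjusted p = 0.0666 to 0.123). Both lower calls, miR-126b* (0.159) and miR-221* (0.1), ended without both libraries numbered 3. The median of this list was -0.39 and that of the erythroid list also -0.39, and both turned slightly positive with total count scaling (0.05 and 0.04). With that scaling the endothelial and smooth muscle list held 3 higher and 0 lower calls, where all 410 miRNAs held 90 higher and 20 lower.

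Of the Hox cluster miRNAs, miR-10 and miR-196, 16 of 17 arms had negative values, with a median of -0.72, and 1 was called lower (5.88%). miR-10b had 15890.2, 4262 and 13685 CPM in 60 hpf TCDD embryos, against 23008, 39061 and 29354 CPM in 36 hpf TCDD embryos (edgeR log2 fold change -1.43, SE 0.44, adjusted p = 0.0375, and 0.0909 with the replicate block). 60 hpf TCDD replicate 2 was the lowest library in miR-10b, and also in miR-10a, which had 21566, 5826 and 20926 CPM in 60 hpf TCDD embryos, against 32478, 41689.9 and 34019 CPM in 36 hpf TCDD embryos and was not called (edgeR log2 fold change -1.16, SE 0.45, adjusted p = 0.0874). miR-10c had 33412, 23792 and 36124 CPM in 60 hpf TCDD embryos, against 49379.5, 41445 and 56858 CPM in 36 hpf TCDD embryos (edgeR log2 fold change -0.66, SE 0.26, adjusted p = 0.0888). In all 3 the groups were separate. Calls that ended with 1 library left out were those of miR-10b (36 hpf replicate 2 or 3 or 60 hpf replicate 2 or 3, adjusted p = 0.0556 to 0.122). Hox calls numbered 3 without 36 hpf TCDD replicate 2. There was no Hox call without both libraries numbered 3, with miR-10b (0.0843). With total count scaling no Hox arm was called either.

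Several abundant families showed little that passed the test. In the epidermal list only miR-203a* was called (lower, edgeR log2 fold change -0.86, SE 0.28, adjusted p = 0.0474, and 0.118 with the replicate block), while the abundant miR-203b had 42654, 51896 and 56894 CPM in 60 hpf TCDD embryos, against 71647, 60928 and 58977 CPM in 36 hpf TCDD embryos (log2 fold change -0.34, SE 0.27). miR-205 had 27731, 38505 and 33912 CPM in 60 hpf TCDD embryos, against 62767, 50175 and 26288 CPM in 36 hpf TCDD embryos (log2 fold change -0.48, SE 0.55). With total count scaling no epidermal arm was called. Among the 20 arms of miR-23, miR-24 and miR-27 the 1 call was miR-27e, with 149.7, 137 and 115 CPM in 60 hpf TCDD embryos, against 57.8, 42.6 and 54.4 CPM in 36 hpf TCDD embryos (edgeR log2 fold change 1.37, SE 0.33, adjusted p = 0.0147, and 0.0575 with the replicate block), and the median was 0.11. miR-7a-3, of the pancreatic and endocrine list, had 134, 127 and 141 CPM in 60 hpf TCDD embryos, against 53.5, 64.7 and 74.2 CPM in 36 hpf TCDD embryos (edgeR log2 fold change 1.07, SE 0.30, adjusted p = 0.0278, and 0.0652 with the replicate block) as the 1 call among 15 arms. Of these 15, 7 had positive and 8 negative values, with a median of -0.02. The most abundant, miR-7b, had 525, 588 and 512 CPM in 60 hpf TCDD embryos, against 1327, 1805 and 754 CPM in 36 hpf TCDD embryos. It was not called (edgeR log2 fold change -1.26, SE 0.45, adjusted p = 0.0662), although its groups were separate. Single libraries decided the call of miR-203a* (36 hpf replicate 1 or 2 or 60 hpf replicate 1, 2 or 3, adjusted p = 0.0663 to 0.177), miR-27e (36 hpf replicate 2, adjusted p = 0.0611) and miR-7a-3 (36 hpf replicate 1 or 2 or 60 hpf replicate 1, 2 or 3, adjusted p = 0.0611 to 0.0909). The call of miR-7a-3 (0.0677) ended without both libraries numbered 3. No arm was called by edgeR's quasi-likelihood test among 15 of miR-15 and miR-16, 12 of the miR-200 family, 6 of miR-26, 7 of miR-29 and 10 of the stress list (miR-21, miR-34 and miR-210). At an unadjusted p under 0.05 these lists held 0, 0, 1, 1 and 1, and DESeq2 called 0, 0, 1, 0 and 1 in the same order. With total count scaling 1 arm each was called higher in the miR-15 and miR-16, miR-29 and stress lists. A miR-29 arm was also called higher without 36 hpf TCDD replicate 3 and without both libraries numbered 3. A stress arm was called higher without 36 hpf TCDD replicate 1 and without 60 hpf TCDD replicate 3. In the stress list miR-34 had 3833, 499 and 4032 CPM in 60 hpf TCDD embryos, against 2461, 156 and 2012 CPM in 36 hpf TCDD embryos (log2 fold change 0.85, SE 0.89), and the libraries numbered 2 were lowest at both times.

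Outside all lists, 9 of 88 tested arms were called higher and 3 lower, all named here because they were called. The largest decrease of all belonged to miR-2190, with 20.8, 15.4 and 35.1 CPM in 60 hpf TCDD embryos, against 129, 240.0 and 354 CPM in 36 hpf TCDD embryos (edgeR log2 fold change -3.33, SE 0.56, adjusted p = 0.00301). miR-2185* had 11.6, 6.48 and 13.6 CPM in 60 hpf TCDD embryos, against 34.5, 88.4 and 116 CPM in 36 hpf TCDD embryos (edgeR log2 fold change -2.89, SE 0.48, adjusted p = 0.00289). miR-2186* was scarce at both times, with 0.514, 1.22 and 1.15 CPM in 60 hpf TCDD embryos, against 2.59, 9.47 and 12.4 CPM in 36 hpf TCDD embryos (edgeR log2 fold change -2.88, SE 0.83, adjusted p = 0.0306, and 0.0541 with the replicate block). Higher were miR-2188, at 2679.6 ± 176 CPM in 60 hpf TCDD embryos and 918 ± 315 CPM in 36 hpf TCDD embryos (SD, n = 3 each; edgeR log2 fold change 1.55, SE 0.30, adjusted p = 0.00514). Next came miR-187, with 336, 306 and 412 CPM in 60 hpf TCDD embryos, against 69, 52.1 and 173 CPM in 36 hpf TCDD embryos (edgeR log2 fold change 1.85, SE 0.49, adjusted p = 0.0197). miR-135c rose too, with 447, 444 and 594 CPM in 60 hpf TCDD embryos, against 135, 183 and 193 CPM in 36 hpf TCDD embryos (edgeR log2 fold change 1.54, SE 0.26, adjusted p = 0.00301). Further higher calls were miR-135a* at 3.28 (SE 0.59), miR-726 at 2.54 (SE 0.71), miR-2191 at 1.48 (SE 0.38) and miR-135c-2* at 1.34 (SE 0.40). miR-135a* was scarce in 36 hpf TCDD embryos, with a mean of 1.68 CPM. The replicate block ended the call of miR-135c-2* (edgeR adjusted p = 0.103). Both miR-459* and miR-734* had no count in any TCDD library of 36 hpf. They passed the filter through other libraries, so a call could only be higher. miR-459* had 5.82 ± 1.32 CPM in 60 hpf TCDD embryos (SD, n = 3) and was called (edgeR adjusted p = 0.0144). This was 4.26 times the 1.37 CPM that 3 counts over the 3 TCDD libraries of 36 hpf would give. That floor is assumed and leaves out the variation between libraries. miR-734* had 4.83 ± 0.958 CPM in 60 hpf TCDD embryos (SD, n = 3), 3.54 times the floor (edgeR adjusted p = 0.0199, and 0.0909 with the replicate block). The threshold was missed with 1 library left out by miR-459* (36 hpf replicate 1, adjusted p = 0.0554), miR-734* (36 hpf replicate 1 or 2, adjusted p = 0.0509 to 0.0757) and miR-187 (36 hpf replicate 1 or 2, adjusted p = 0.0746 to 0.0756). Dropping a single library ended the call of miR-726 (36 hpf replicate 1 or 3 or 60 hpf replicate 2, adjusted p = 0.0614 to 0.116), miR-2191 (36 hpf replicate 1 or 2 or 60 hpf replicate 2, adjusted p = 0.0633 to 0.0804) and miR-135c-2* (36 hpf replicate 2 or 60 hpf replicate 1, 2 or 3, adjusted p = 0.064 to 0.0895). Leaving out 1 library ended the call of miR-2186* (36 hpf replicate 2 or 3 or 60 hpf replicate 1, 2 or 3, adjusted p = 0.06 to 0.109). Calls that ended without both libraries numbered 3 were miR-135c-2* (0.0938), miR-2186* (0.139), miR-726 (0.0692) and miR-734* (0.0639).

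The arms of 1 hairpin gave 2 readings of its change within the same libraries. Of 139 hairpins with 1 tested major and 1 tested star arm, 99 had log2 fold changes of the same sign and 40 of opposite sign, with Pearson's r of 0.66 and Spearman's rho of 0.59 across hairpins, which are not independent replicates. Both arms were called higher in 6 hairpins and both lower in 3, the major arm alone was called in 21 and the star arm alone in 15, and in 0 hairpins were the arms called in opposite directions. Star arms together took 10.1% to 10.9% of the miRNA counts in 60 hpf TCDD libraries and 6.93% to 8.55% in 36 hpf TCDD libraries. The groups were separate, which with 3 against 3 gives an exact two-sided permutation p = 0.10, the smallest that the design allows. In DMSO embryos the shares were 7.03% to 7.27% at 60 hpf and 6.8% to 8.5% at 36 hpf, and the difference between the treatments was not tested. The largest gain of a single star arm was that of miR-199-2*, with a mean of 0.974% of the counts at 60 hpf against 0.219% at 36 hpf in TCDD embryos, followed by miR-140* with 1.20% against 0.727%. Neither arm was called.

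The most abundant miRNAs changed rank between the times. In 60 hpf TCDD embryos the order was miR-203b at 50481 ± 7224 CPM, miR-130b at 44914 ± 7637 CPM, miR-204 at 35217 ± 3638 CPM, miR-206 at 33802 ± 6987 CPM and miR-205 at 33383 ± 5406 CPM (SD, n = 3). The last 3 differed by less than their spread. In 36 hpf TCDD embryos it was miR-19b at 95000.4 ± 19757 CPM, miR-130b at 76700 ± 38875 CPM, miR-203b at 63851 ± 6822 CPM, miR-10c at 49228 ± 7708 CPM and miR-205 at 46410 ± 18529 CPM (SD, n = 3), and the spread of miR-130b covered its neighbours. None of these 7 miRNAs was called by edgeR's quasi-likelihood test, and at an unadjusted p under 0.05 there were 2, while DESeq2 called 2.

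Whether exposed embryos differed from vehicle embryos in this development was tested as the difference of the 2 changes, and 0 of 410 miRNAs were called by edgeR's quasi-likelihood test (0%). At an unadjusted p under 0.05 there were 19 (4.63%). In DMSO embryos 52 miRNAs were called higher (12.7%) and 23 lower (5.61%), together 75 (18.3%), and 124 passed an unadjusted p of 0.05 (30.2%). The larger number of lower calls in TCDD embryos depended on the scaling. With total count scaling lower calls numbered 20 in TCDD and 20 in DMSO embryos, and higher calls 90 and 59. That scaling moved the median over the 410 up by 0.46 in TCDD and by 0.12 in DMSO embryos. The overlap below was counted with TMM factors. Of the 52 higher calls in TCDD embryos 37 were also called in DMSO embryos, 71.2% of either list, and of the 36 lower calls 18 were, 50% of the TCDD list and 78.3% of the DMSO list. No miRNA was called in opposite directions. Of the 33 calls of TCDD embryos that were not called in DMSO embryos, 30 had the same sign there. The share of same signs over all 410 miRNAs was not computed, so this count has no background. Let-7a, for example, had 1132, 865 and 609 CPM in 60 hpf DMSO embryos, against 87.3, 87.4 and 43.5 CPM in 36 hpf DMSO embryos (edgeR log2 fold change 3.59, SE 0.40, adjusted p = 0.000385). miR-190b had 1482, 1398 and 276 CPM in 60 hpf DMSO embryos, against 13.4, 19.2 and 24.1 CPM in 36 hpf DMSO embryos (edgeR log2 fold change 5.77, SE 0.65, adjusted p = 0.000385).

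**Figure D3:**
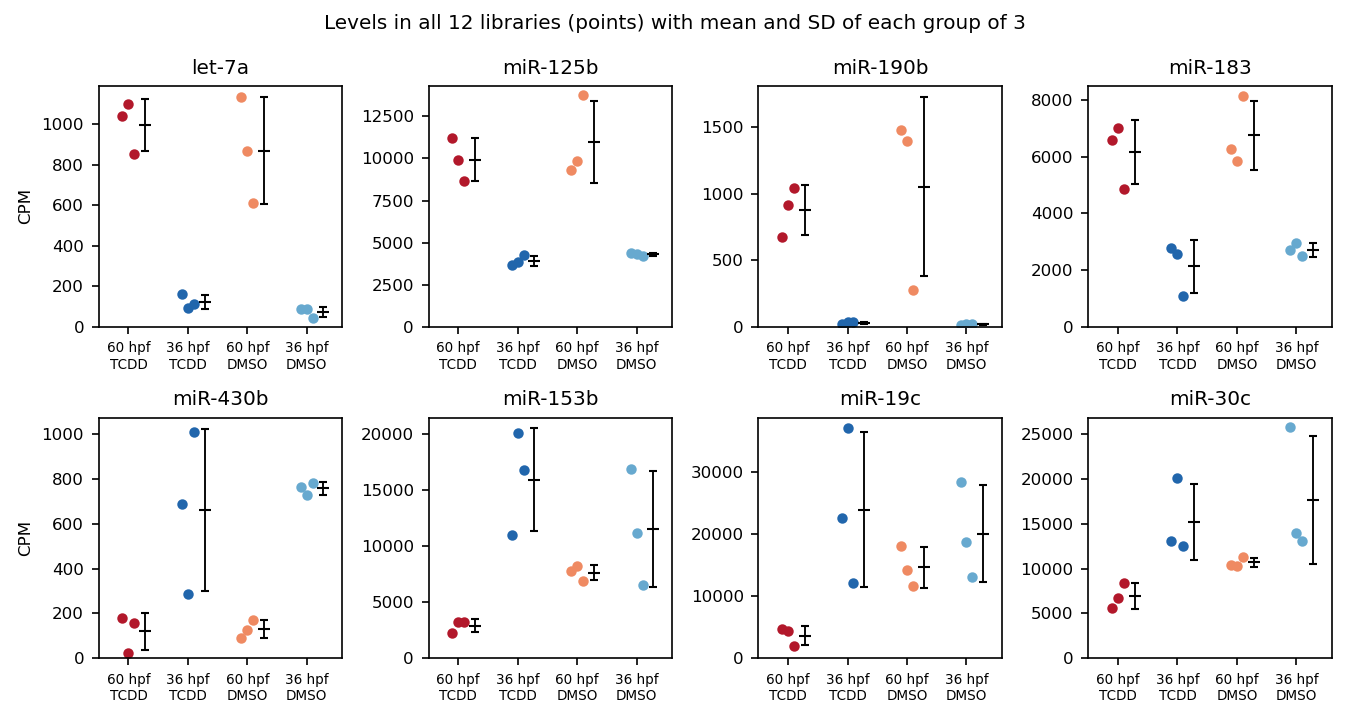
Level in CPM of 8 miRNAs in all 12 libraries, with groups of 60 and 36 hpf TCDD (red, blue) left of 60 and 36 hpf DMSO embryos (orange, light blue). Points are libraries, and the black mark beside them is the mean with its SD (n = 3). let-7a, miR-125b, miR-190b and miR-183 were higher at 60 hpf and miR-430b lower with either treatment, while miR-153b, miR-19c and miR-30c were called lower in TCDD embryos and not in DMSO embryos, a contrast that edgeR's quasi-likelihood test of the difference did not call.

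The 5 miRNAs of smallest p in that difference did not pass. For miR-723* it was -4.28 (SE 0.95, edgeR adjusted p = 0.388), with 2.83, 4.46 and 4.39 CPM in 60 hpf TCDD embryos, against 8.63, 6.32 and 0 CPM in 36 hpf TCDD embryos. The DMSO libraries held 17, 16.5 and 12.3 CPM in 60 hpf DMSO embryos, against 0, 1.6 and 1.17 CPM in 36 hpf DMSO embryos. miR-153b differed by -1.86 (SE 0.51, edgeR adjusted p = 0.407). Its DMSO libraries held 7791, 8221 and 6873 CPM in 60 hpf DMSO embryos, against 16894, 11194 and 6503 CPM in 36 hpf DMSO embryos. In DMSO embryos 36 hpf replicate 3 lay below all libraries of 60 hpf. For miR-142a it was -1.55 (SE 0.43, edgeR adjusted p = 0.407), for miR-129-1* -1.41 (SE 0.40, edgeR adjusted p = 0.407) and for miR-1388 1.79 (SE 0.51, edgeR adjusted p = 0.407). miR-129-1* had 71.2, 84.7 and 69.1 CPM in 60 hpf TCDD embryos, against 44, 66.3 and 47 CPM in 36 hpf TCDD embryos. Vehicle embryos had 124, 96.2 and 127 CPM at 60 hpf DMSO, against 33.6, 29.7 and 28.5 CPM at 36 hpf DMSO. The times were separate with either treatment, at log2 fold changes of 0.52 in TCDD (not called) and 1.93 in DMSO embryos. miR-1388 had 17, 17 and 27.9 CPM in 60 hpf TCDD embryos, against 16.4, 26.8 and 27.2 CPM in 36 hpf TCDD embryos. In vehicle embryos it had 8.66, 6.68 and 5.84 CPM in 60 hpf DMSO embryos, against 31.9, 29.7 and 21.4 CPM in 36 hpf DMSO embryos. DESeq2 called these 5 and miR-27e, the likelihood ratio test called miR-723*, limma-voom called 0, and edgeR without 36 hpf TCDD replicate 3 called miR-723* and miR-193b*.

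The 3 miR-19 arms called in TCDD embryos were not called in DMSO embryos, and the difference was not called either. In DMSO embryos miR-19a changed by -0.65 (SE 0.56) on the log2 scale, miR-19c by -0.46 (SE 0.47) and miR-19d by -0.48 (SE 0.71), with no call. The differences were -1.72 (SE 0.80, edgeR adjusted p = 0.871) for miR-19a, -2.25 (SE 0.66, edgeR adjusted p = 0.429) for miR-19c and -2.35 (SE 1.02, edgeR adjusted p = 0.871) for miR-19d. For miR-19c, DMSO embryos had 18074, 14264 and 11565 CPM in 60 hpf DMSO embryos, against 28434, 18802 and 13026 CPM in 36 hpf DMSO embryos. The summed level of the miR-17-92 type clusters in DMSO embryos was 203175, 191351 and 153856 CPM at 60 hpf, against 265095, 289178 and 153210.0 CPM at 36 hpf, where the times overlapped. At list level, with TMM factors, median changes in TCDD and in DMSO embryos were 1.48 and 1.74 for let-7, -1.93 and -1.58 for miR-430, 1.68 and 1.26 for the sensory cluster, 0.77 and 0.12 for cartilage and mesenchyme and -0.99 and -0.38 for leukocytes. No arm of any of the 25 lists was called in the difference by edgeR's quasi-likelihood test. DESeq2 called listed arms there, among them miR-153b, miR-142a and miR-27e.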

How the data were processed

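Small RNA libraries were made with the SREK kit and sequenced on a SOLiD V3 system, per the labels' protocols. The deposited tables hold raw counts per feature, per the file headers, and the submitters' processing notes name edgeR without a role or version. Labels and headers name no aligner, counting rule, annotation or build, so these steps remain not given in the sources used here. A row missing from a library was taken as 0, and 1797 rows that name transcripts were left out. Copies of 1 mature name and arm were merged into the most abundant where the lower total was at least 80% of the higher. This merged 81 features, while 38 names or arms stayed split because their copies differed.

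Counts were fitted in edgeR 4.0.16 (R 4.3.3) with TMM factors, the filterByExpr filter (minimum count 10, minimum total 15), means for the 4 groups over all 12 libraries and a robust quasi-likelihood fit with 8 residual degrees of freedom. Benjamini-Hochberg adjustment ran over 410 features, and calls had an adjusted p under 0.05. The filter can keep a miRNA for its level at 1 time alone, so counts of calls within a list describe its tested members. DESeq2 1.42.0 and limma 3.58.1 served as alternatives, and the fit was tested on simulated data.

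Same-numbered TCDD libraries deviated from their group means together (r = 0.252, 0.263 and 0.416 for numbers 1, 2 and 3), so the numbers were taken to pair them in the replicate block, an alternative fit. The reported calls come from the fit without the block. The pairing comes from the data, since the labels do not state a shared clutch or day. In DMSO libraries, which the block also paired by number, r was -0.229, 0.016 and 0.018. The block leaves fewer residual degrees of freedom than the fit without it. How far calls ended through the pairing or through the lost degrees of freedom was not tested.

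Named miRNAs were the 12 of largest change per direction among calls whose times did not overlap and that reached 100 CPM, the major arms of let-7 and miR-430, the 2 most abundant members of each other list, the 5 most abundant of each time and the 5 of smallest p in the difference. Other miRNAs were named because they were called, or to set an arm or family member beside one that was, after their values were seen. The members, lists and alternatives were chosen with earlier results of these data known. CPM values were computed here.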

Additional observations from a re-analysis of the deposited data

How the results depend on the processing

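Recomputed counts of calls stayed within 1.5 times the reported count in 82 cases and did not in 21. Higher calls in TCDD embryos numbered 90 with total count scaling and 106 with rows as deposited, and 36 to 48 with 1 library left out. Lower calls numbered 20 with total count scaling, 62 with DESeq2, 16 with only the 6 TCDD libraries, 19 with the replicate block and 169 with rows as deposited, and 21 to 38 with 1 library left out. In rows as deposited every hairpin copy is a row of its own, and copies with near-equal counts may hold the same reads. In DMSO embryos higher calls numbered 106 with rows as deposited and 34 to 45 with 1 library left out. Lower calls there numbered 53 with DESeq2, 15 with the replicate block and 155 with rows as deposited, and 14 to 26 with 1 library left out. The difference gave 6 calls with DESeq2, 1 with the likelihood ratio test and 0 to 2 with 1 library left out. The cause of these shifts was not tested. Beyond the calls given beside their miRNAs, the replicate block changed no call of a named miRNA.

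None of the 35 named miRNAs called in TCDD embryos changed sign under any setting. They were picked as calls from these same libraries, so a stable sign was likely beforehand and is no independent support. Signs reversed among the uncalled ones, as log2 fold changes. With total count scaling these were miR-1388 0.31, miR-16c 0.26, miR-203b 0.12, miR-210* 0.20, miR-221 0.050, miR-23a 0.45, miR-23b 0.33, miR-29a 0.28, miR-29b 0.10, miR-30e 0.092 and miR-457a 0.35. With rows as deposited they were miR-1388 0.0081, miR-23a 0.15, miR-23b 0.036 and miR-457a 0.058. miR-206 lay at -0.035 with RLE scaling and with DESeq2, and at -0.032 with upper quartile scaling. miR-23a lay at 0.0012 with no filter, 0.026 with only the TCDD libraries, 0.13 with copies summed and 0.055 with 1 row per name and arm, an alternative chosen after seeing the data. Without both TCDD libraries numbered 3, miR-16c lay at 0.26 and miR-7a-1 at -0.075. Leaving out 1 library gave -0.55 to 0.35 for miR-16c, -0.95 to 0.13 for miR-200a, -0.27 to 1.54 for miR-200b, -0.35 to 0.79 for miR-206, -0.20 to 0.062 for miR-23a, -0.36 to 0.033 for miR-29a, -0.22 to 0.053 for miR-457a, -0.97 to 0.012 for miR-723* and -0.11 to 0.54 for miR-7a-1.

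The 36 hpf TCDD libraries were the shallower ones, which limits the miRNAs that are scarce at that time. With 3 libraries in a group, an exact permutation test of a single value cannot go below p = 0.10.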
